A study of Zea mays with 10 samples.

Results

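This account covers the clones of a pair of maize genes that lie next to each other in one-carbon metabolism, sam2 (LOC542733), an S-adenosylmethionine synthetase, and csu503(met) (LOC541942), which is named for methionine synthesis. The members were all clones on the array whose platform annotation gave one of these gene symbols, which were 32 clones of sam2 and 21 of csu503(met), together 53 of 5400 clones. A clone is a cDNA printed as 3 successive spots, whose values were averaged. On 10 two-colour cDNA arrays, RNA of immature ears of the F1 hybrid B73xH99 was hybridised together with RNA of 1 of its inbred parents, B73 on 5 arrays and H99 on 5 arrays. Per the labels, each genotype was a bulk of 10 field-grown plants at stage V15, with silks and ear tips removed, and on 3 arrays of each inbred the hybrid carried Cy3 (forward) and on 2 it carried Cy5 (reversed). There was no untreated or transgenic group, and the hybrid channel was the common reference of all arrays.

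S-adenosylmethionine synthetase joins methionine and ATP to S-adenosylmethionine, the donor of most methyl groups that plant cells put on DNA, lignin precursors, phospholipids and pectin. The same compound is the starting point of ethylene and polyamine synthesis. After the methyl group is given away, homocysteine remains, and methionine synthase turns it back into methionine with a methyl group from folate, which closes the cycle. The tables used here give no protein description for either gene, and clones of related synthetase genes can share hybridisation signal, which was not tested.

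All values below are the deposited log2 ratios of an array's channels, of which 1 unit is a 2-fold difference. The design text defines the ratio as F1 against inbred, so that a positive value would mean a higher signal in the hybrid, but neither this direction nor whether reversed arrays were turned before deposit could be settled from the files, and the signs are given as deposited. The means of the 5 B73 arrays and of the 5 H99 arrays are called L1 and L2. A clone was called where the adjusted p of limma, by Benjamini and Hochberg over 5357 tested clones, was under 0.05, and all 53 members were tested. Since each genotype was 1 RNA pool that was labelled anew for each array, the errors and p-values cover technical spread only, and no spread between plants. Over all clones, forward and reversed arrays correlated at 0.37 to 0.54 for B73 and at -0.17 to 0.22 for H99. With the reversed B73 arrays turned in sign, 0 of the 53 member clones and 0 of all clones were called for L1. An unadjusted limma p under 0.05 was then found in 9 members, a count not given over all clones. Every B73 call given here therefore rests on the reversed arrays standing as deposited. The files hold no signal levels, so neither the ear identity of the tissue nor the abundance of these transcripts could be checked.

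Averaged over their clones, both genes lay close to 0 on every array. The mean of the sam2 clones was -0.09, -0.01, -0.07, -0.07 and -0.12 on B73 arrays 1 to 5, where arrays 4 and 5 are the reversed ones. On the H99 arrays in the same order it was 0.06, 0.03, -0.08, 0.03 and 0.00. The gene was thus slightly negative on all 5 B73 arrays and on 1 H99 array, and the ranges of the inbreds overlapped. L1 of the sam2 mean was -0.07 ± 0.038 (SD, n = 5), with a 95% interval of -0.18 to 0.04 and a limma adjusted p of 0.267. L2 was 0.01 ± 0.053 (SD, n = 5), with an interval of -0.10 to 0.12 and a limma adjusted p of 0.96. In the same fit, of gene means and unnamed clones, 40.4% of features were called for L1 and 0.987% for L2. In a bulk tissue, fewer cells of a type and less RNA per cell cannot be told apart, and this holds for every value below.

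The mean of the csu503(met) clones was 0.02, 0.02, -0.01, 0.01 and -0.03 on B73 arrays 1 to 5. On H99 arrays 1 to 5 it was 0.13, 0.03, -0.04, 0.02 and 0.01. Neither inbred kept one sign on all its arrays. L1 was 0.0015 ± 0.023 (SD, n = 5), with an interval of -0.11 to 0.11 and a limma adjusted p of 0.983. L2 was 0.03 ± 0.062 (SD, n = 5), with an interval of -0.08 to 0.14 and a limma adjusted p of 0.855. The inbreds were not shown to differ in either gene mean, since (L2 - L1)/2, called a in the design text, was 0.04 (-0.04 to 0.12; limma adjusted p 0.43) for sam2 and 0.01 (-0.06 to 0.09; limma adjusted p 0.805) for csu503(met). The same fit called 19.5% of its features for a.

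**Figure D1:**
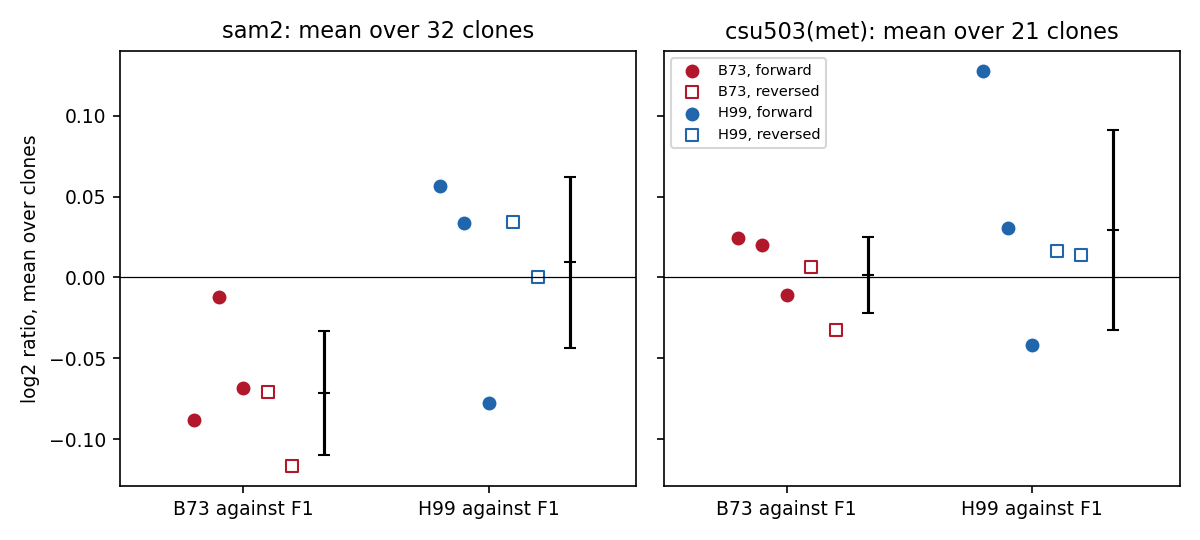
Mean deposited log2 ratio over the 32 sam2 clones and the 21 csu503(met) clones on each of the 10 arrays, by inbred and dye orientation, with the mean of each inbred. The sam2 points of the 5 B73 arrays lie between -0.12 and -0.01, and the csu503(met) points of both inbreds lie on both sides of 0.

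Behind these means lay clones of both signs. For L1, 15 of the 32 sam2 clones were called, 6 positive and 9 negative, which is 46.9% against 41.7% of all clones tested. For csu503(met) 8 of 21 clones, or 38.1%, were called, 5 positive and 3 negative. Both shares are near that of the array as a whole, of which 21% was called positive and 20.7% negative. The clones of sam2 ranged from -0.98 to 0.29 with a median of -0.04 and an SD over clones of 0.274, and those of csu503(met) from -0.49 to 0.40 with a median of -0.02 and an SD of 0.224. The median of all clones was -0.01 and their SD 0.229. By sign alone, 17 sam2 clones were negative and 15 positive, and 11 csu503(met) clones were negative and 10 positive.

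Few of the same clones were called on the H99 side. For L2, 1 sam2 clone, positive, and 0 csu503(met) clones were called, against 1.23% of all clones (0.709% positive and 0.523% negative). An unadjusted limma p under 0.05 was found in 4 of 32 sam2 and 3 of 21 csu503(met) clones, against 824 of all 5357 clones. The sam2 clones ranged from -0.28 to 0.30 (SD over clones 0.104) and the csu503(met) clones from -0.23 to 0.22 (SD 0.093), where all clones had an SD of 0.112. Their medians were 0.03 and 0.04, with 20 of 32 and 15 of 21 clones positive, against a median of -0.002 and 49.1% positive over all clones. Clones of 1 gene share the same arrays and are not independent. The median SD between arrays of a sam2 clone was 0.126 on H99 and 0.177 on B73, and that of a csu503(met) clone was 0.143 and 0.145. No clone of either gene was called for both L1 and L2, as 0.597% of all clones were, and the difference between them is tested clone by clone through a, below. The count for L1 depended on 1 array: without B73 array 3 it was 12 in place of 23 over both genes, and 5 in place of 15 for sam2. The count over all clones without this array is not given, so no difference from the whole array is shown.

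**Figure D2:**
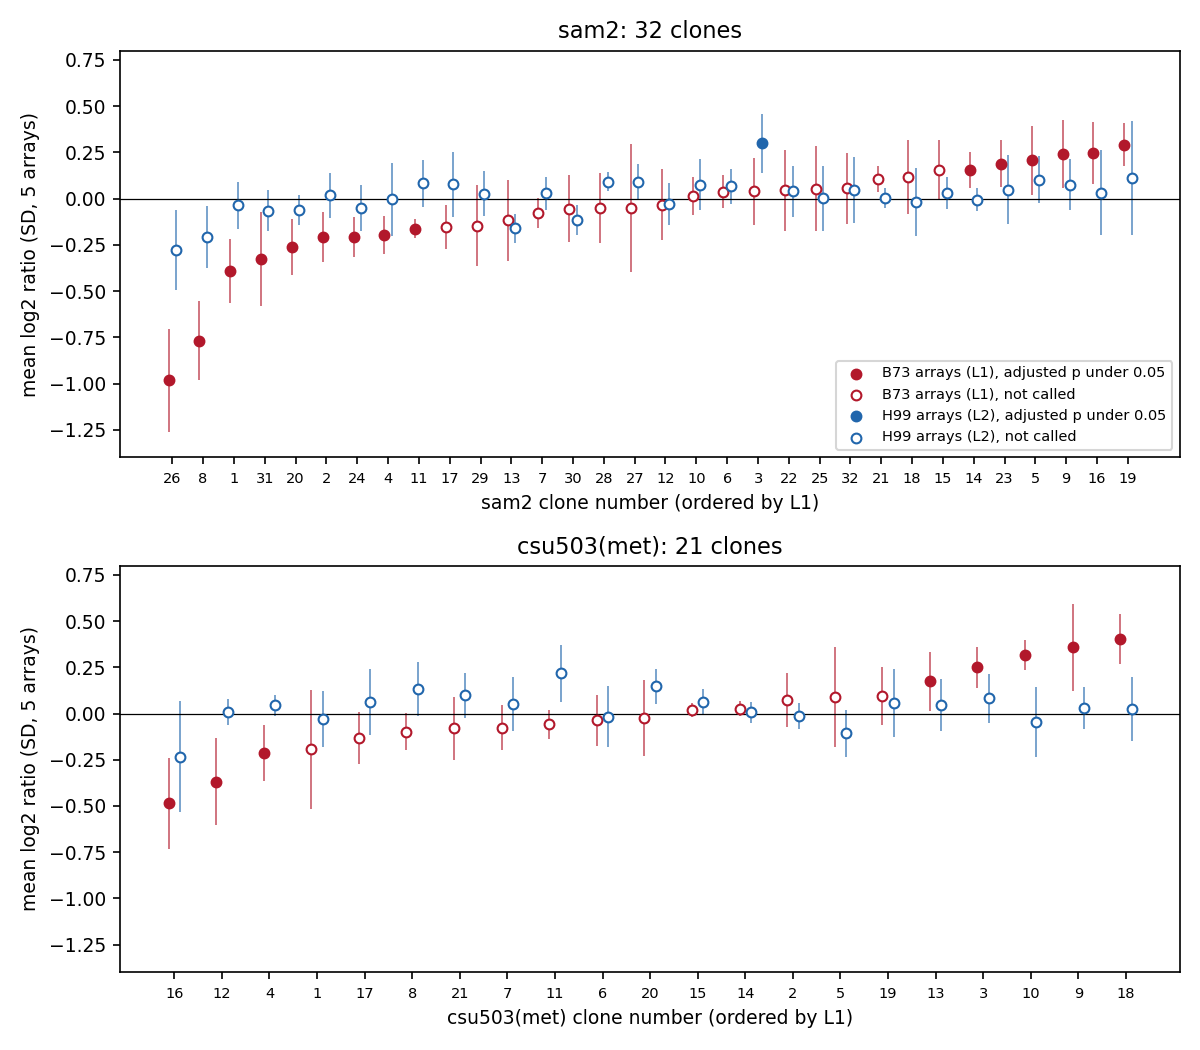
L1 (5 B73 arrays) and L2 (5 H99 arrays) of each of the 53 clones as deposited log2 ratios, with called clones marked. The clones of both genes spread to both sides of 0 on the B73 arrays, from -0.98 to 0.40, and lie closer to 0 on the H99 arrays, from -0.28 to 0.30.

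The farthest sam2 clone, number 26 in the order of the array, read -1.16, -0.65, -0.80, -0.97 and -1.34 on B73 arrays 1 to 5. On the H99 arrays it read -0.52, -0.15, -0.50, -0.06 and -0.16. All 10 arrays were negative, and the inbreds did not overlap. L1 was -0.98 ± 0.278 (SD, n = 5; limma SE 0.090, adjusted p 8.51e-07), a 1.98-fold difference between the channels, and L2 was -0.28 ± 0.215 (SD, n = 5; limma adjusted p 0.14). Of the single spots averaged into these values, 15 of 15 B73 spots lay between -1.38 and -0.64, and 14 of 14 H99 spots were negative. The spots of 1 array are repeats within it and add no further arrays.

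Clone 8 of sam2 read -0.74, -1.01, -0.65, -0.49 and -0.95 on the B73 arrays. On the H99 arrays it read -0.16, -0.19, -0.25, 0.01 and -0.45. It was negative on 9 of 10 arrays, and every B73 array lay below every H99 array. L1 was -0.77 ± 0.214 (SD, n = 5; limma adjusted p 2.31e-06), a 1.7-fold difference, and L2 was -0.21 ± 0.167 (SD, n = 5; limma adjusted p 0.2). Clone 1 of sam2, the third by size, read -0.36, -0.49, -0.58, -0.42 and -0.12 on B73 and -0.03, 0.07, -0.24, -0.04 and 0.06 on H99. It was negative on all 5 B73 arrays and near 0 on H99, with overlap between the mildest B73 array and the lowest H99 array, and its L1 was -0.39 ± 0.174 (SD, n = 5; limma adjusted p 0.000486).

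The highest sam2 clone on B73 was number 19, at 0.20, 0.28, 0.45, 0.37 and 0.16. On H99 it read 0.26, 0.05, -0.40, 0.28 and 0.37. All B73 arrays were positive, while on H99 array 3 stood alone below 0, and the groups overlapped. L1 was 0.29 ± 0.119 (SD, n = 5; limma adjusted p 0.0128), and L2 was 0.11 ± 0.308 (SD, n = 5; limma adjusted p 0.582). Without B73 array 3, L1 was 0.25 and its limma adjusted p 0.0573, which ended the call. The L1 calls of sam2 clones 1, 8 and 26 held without each array in turn, with L1 of clone 26 between -1.07 and -0.89.

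The 1 sam2 clone called on H99 was clone 3. It read 0.19, 0.28, 0.58, 0.18 and 0.27 on H99 and 0.29, -0.08, 0.18, -0.06 and -0.12 on B73. All H99 arrays were positive and the B73 arrays lay on both sides of 0, with overlap. L2 was 0.30 ± 0.160 (SD, n = 5; limma adjusted p 0.0499), while L1 was 0.04 ± 0.181 (SD, n = 5; limma adjusted p 0.671). The call held by little: it was lost without any 1 of the 5 H99 arrays or without B73 array 2, and without H99 array 3 L2 was 0.23 at a limma adjusted p of 0.178.

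Among the csu503(met) clones the lowest on B73 was number 16, at -0.33, -0.27, -0.43, -0.50 and -0.90. On H99 it read 0.10, -0.24, -0.70, -0.06 and -0.27. It was negative on 9 of 10 arrays and the inbreds overlapped. L1 was -0.49 ± 0.246 (SD, n = 5; limma adjusted p 0.0012), a 1.4-fold difference, and L2 was -0.23 ± 0.300 (SD, n = 5; limma adjusted p 0.258). Clone 12 read -0.45, -0.57, -0.59, -0.16 and -0.08 on B73 and 0.02, -0.02, 0.04, 0.10 and -0.09 on H99. Its H99 arrays lay around 0, its forward B73 arrays were far lower than its reversed ones, and L1 was -0.37 ± 0.235 (SD, n = 5; limma adjusted p 0.00115).

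Other csu503(met) clones went the opposite way on the same arrays. Clone 18 read 0.39, 0.27, 0.54, 0.54 and 0.27 on B73. On H99 it read 0.01, -0.06, -0.21, 0.14 and 0.24. Every B73 array lay above every H99 array, and L1 was 0.40 ± 0.135 (SD, n = 5; limma adjusted p 0.000453), a 1.32-fold difference. Clone 10 read 0.33, 0.28, 0.45, 0.24 and 0.28 on B73 and -0.004, -0.14, -0.31, 0.20 and 0.02 on H99, again without overlap, and L1 was 0.32 ± 0.082 (SD, n = 5; limma adjusted p 0.00174). Clone 9 read 0.52, 0.46, 0.59, 0.18 and 0.04 on B73 and 0.20, 0.08, -0.06, 0.02 and -0.09 on H99. Its reversed B73 arrays fell among the H99 values, and L1 was 0.36 ± 0.235 (SD, n = 5; limma adjusted p 0.00168). L2 of these clones lay between -0.05 and 0.03 and none was called.

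Clone 11 was the csu503(met) clone with the highest L2. It read 0.33, 0.36, 0.28, 0.12 and -0.004 on H99 and 0.03, -0.06, -0.18, -0.04 and -0.05 on B73. The H99 arrays were mostly positive and the B73 arrays near 0, with slight overlap. L2 was 0.22 ± 0.154 (SD, n = 5; limma adjusted p 0.0958), which missed the threshold, and without H99 array 5 it was 0.27 at a limma adjusted p of 0.0471.

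**Figure D3:**
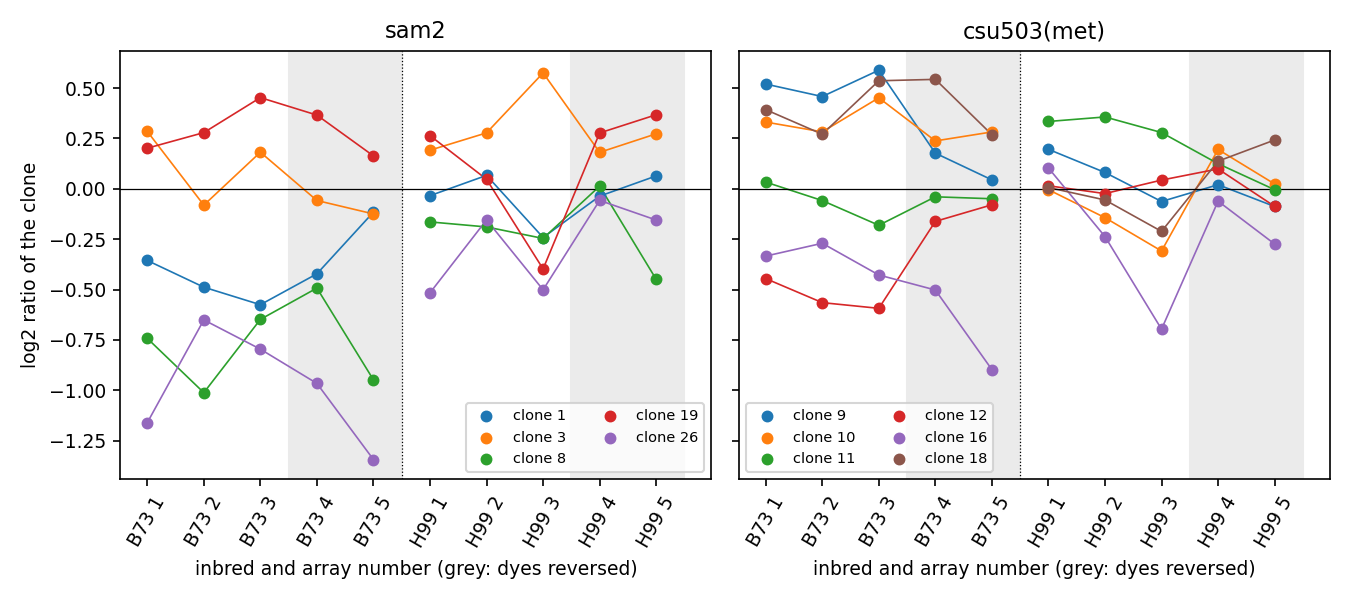
Deposited log2 ratios of 11 clones on the 10 arrays, the clones with the highest or lowest L1 or L2 and the called clones of largest size. Lines join the arrays of 1 clone and carry no order. Clones 26 and 8 of sam2 lie between -1.34 and -0.49 on the B73 arrays, and clones 18 and 10 of csu503(met) lie between 0.24 and 0.54.

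Clones of 1 gene were then set against each other. On each array the mean of the other clones of the same gene was subtracted from each clone, for the 70 genes that had 3 clones or more, and limma was run on these 624 differences. On B73, 14 of 32 sam2 clones and 8 of 21 csu503(met) clones differed from the rest of their gene, against 50.3% of all clones so tested. Clone 26 lay -0.94 from the other sam2 clones (limma adjusted p 2e-06) and clone 19 lay 0.38 from them (limma adjusted p 0.0018), and clone 16 lay -0.51 and clone 18 lay 0.42 from the other csu503(met) clones. On H99 0 clones of either gene differed, as did 0 of all 624. An unadjusted limma p under 0.05 was found in 4 of 32 sam2 and 2 of 21 csu503(met) clones, against 8.65% of the 624. Differences of clones of 1 gene are not independent of each other. Among the 19 genes with at least 10 clones, the SD over clones of L1 ranked 4 for sam2 and 9 for csu503(met), counted from the most spread. Whether the differing clones are cDNAs of related genes was not tested.

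The design text defines a second measure, d, the mean of L1 and L2, which compares the hybrid with the midpoint of its parents. For d, 11 of 32 sam2 clones were called, 4 positive and 7 negative, and 6 of 21 csu503(met) clones, 4 positive and 2 negative, against 25.2% of all clones (12.5% positive and 12.7% negative). The most negative were sam2 clone 26 at -0.63 (limma SE 0.064), sam2 clone 8 at -0.49 (SE 0.054) and csu503(met) clone 16 at -0.36 (SE 0.068). The most positive were csu503(met) clone 18 at 0.21 (SE 0.049) and sam2 clone 19 at 0.20 (SE 0.061). The count of 17 was 7, 10 and 9 without B73 array 1, 2 or 3 in turn, and 11 without H99 array 1, 4 or 5. How far the count over all clones fell is not given. The calls of these 5 clones for d held without each array in turn except that of sam2 clone 19, which was lost without B73 array 2 or 3 or H99 array 1, 4 or 5.

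For a, 4 sam2 clones were called, all positive, and 6 csu503(met) clones, 3 in each direction, against 20.3% of all clones (9.15% positive and 11.2% negative). The size was largest in sam2 clone 26 at 0.35 (limma SE 0.064, adjusted p 0.00269), followed by sam2 clone 8 at 0.28 (SE 0.054, adjusted p 0.00399). Clone 12 of csu503(met) stood at 0.19 and clones 18 and 10 at -0.19 and -0.18. In the direction that the design text gives, a positive value would be a higher signal in B73 than in H99. Over all clones L1 was more spread than L2, with an SD of 0.229 against 0.112. With this spread, clones called for a can have the larger L1 whatever their gene. How many of all clones called for a did so was not counted, so the count that follows describes these clones alone. In 9 of the 10 member clones called for a, all but csu503(met) clone 11, L1 was larger in size than L2, which places the hybrid closer to H99. This was 6 of 10 with the reversed B73 arrays turned, when a of sam2 clones 26 and 8 became -0.11 and -0.0074, and 5 of 10 with those of both inbreds turned. The count of 10 was 6 without B73 array 1, 2 or 3 or H99 array 3, and 5 without H99 array 2, with no count over all clones beside it. The call of csu503(met) clone 12 was lost without B73 array 2, where a was 0.165, and those of sam2 clones 26 and 8 and csu503(met) clones 18 and 10 held without each array in turn. With the arrays scaled to one spread, these 4 calls were lost (limma adjusted p 0.12, 0.139, 0.103 and 0.0712), and of the 8 clones called for a that are printed here array by array, 1, csu503(met) clone 11, kept its call. Quantile normalization kept 4 of the 8, among them sam2 clone 26.

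The ratio d/|a| places the hybrid relative to its parents, with 0 at the midpoint and 1 or -1 at a parent. Among the 10 clones called for a, the ratio was -1.78 for sam2 clone 26 (95% Fieller interval -2.97 to -1.19) and -1.74 for sam2 clone 8 (-3.04 to -1.13). These intervals, which are not adjusted for the number of clones, lay wholly beyond -1, and those of the other 8 clones did not lie beyond either parent. L2 of neither clone was called, however, at a limma adjusted p of 0.14 and 0.2. With the reversed B73 arrays turned, d of the clones was -0.17 and -0.20 and neither d nor a was called, so the place beyond the parents holds for the arrays as deposited. Clone 1 of sam2 had -1.20 (-3.03 to -0.55). For csu503(met) the ratio was 1.18 (0.44 to 3.96) in clone 9, 1.13 (0.52 to 2.68) in clone 18 and -0.95 (-2.48 to -0.35) in clone 12, intervals that hold a parent's value and leave out the midpoint. The interval of csu503(met) clone 11, 0.57 (-0.10 to 2.19), held both.

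**Figure D4:**
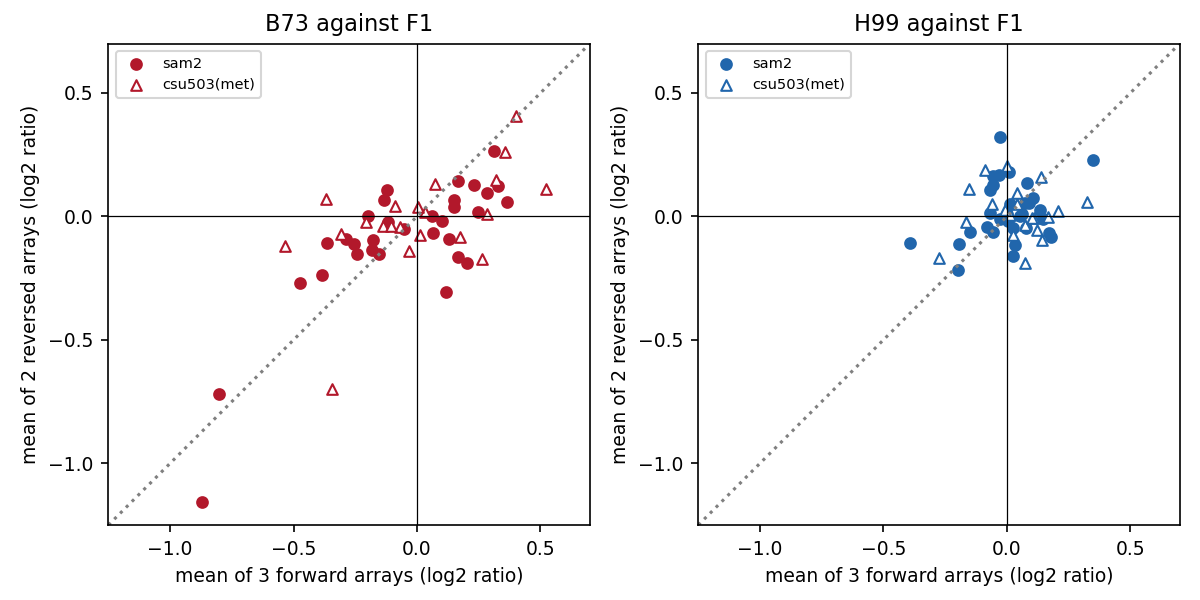
Mean of the 3 forward arrays against the mean of the 2 reversed arrays for each of the 53 clones, for B73 and for H99, as deposited log2 ratios. On B73 23 of 32 sam2 clones and 16 of 21 csu503(met) clones have the same sign in both orientations, and on H99 these shares are 53.1% and 38.1%.

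Both dye orientations gave L1 the same sign in 23 of 32 sam2 clones and 16 of 21 csu503(met) clones, or 71.9% and 76.2%, against 69.1% of all clones. For L2 the shares were 53.1% and 38.1%, against 49.1% of all. Clone 8 of sam2 had a forward mean of -0.80 and a reversed mean of -0.72, clone 26 had -0.87 and -1.16, and clone 1 had -0.47 and -0.27. In csu503(met) they were 0.40 and 0.41 for clone 18 and -0.34 and -0.70 for clone 16. All these clones kept their sign, and none of these differences between orientations was called (limma adjusted p from 0.159 for csu503(met) clone 16 to 0.982 for clone 18). Clones 9 and 12 of the same gene were farther from 0 on the forward arrays, at 0.52 against 0.11 and at -0.53 against -0.12. This difference between orientations was called in limma for clone 9 (adjusted p 0.0194) and clone 12 (adjusted p 0.0153), and also for sam2 clone 22, at 0.20 forward and -0.19 reversed, and csu503(met) clones 1, at -0.37 and 0.07, and 5, at 0.26 and -0.17, which changed sign between orientations. In all these were 1 of 32 sam2 clones and 4 of 21 csu503(met) clones on B73, against 15.4% of all clones. On H99 0 member clones were called, against 4.31%, with 3 and 4 at an unadjusted limma p under 0.05, against 20.4% of all clones. The part of the dye in L1 of clones 9 and 12 was not tested.

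Clones were also compared with their neighbours in row order. The sign of L1 was that of the median of the neighbouring clones, up to 3 on each side in row order, in 25 of 32 sam2 clones and 16 of 21 csu503(met) clones, or 78.1% and 76.2%, against 65.8% of all clones. Clone 10 of csu503(met) read 0.32 beside a neighbour median of 0.36, and with this median subtracted it was -0.05. The largest negative clones did not follow their neighbours: sam2 clone 8 lay at -0.77 beside 0.12, sam2 clone 26 at -0.98 beside -0.09 and csu503(met) clone 16 at -0.49 beside 0.23. Clone 18 of csu503(met) and clone 19 of sam2, the highest of each gene, stood next to each other in row order. Their neighbour medians were -0.03 and 0.03. What makes neighbours alike was not tested.

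**Figure D5:**
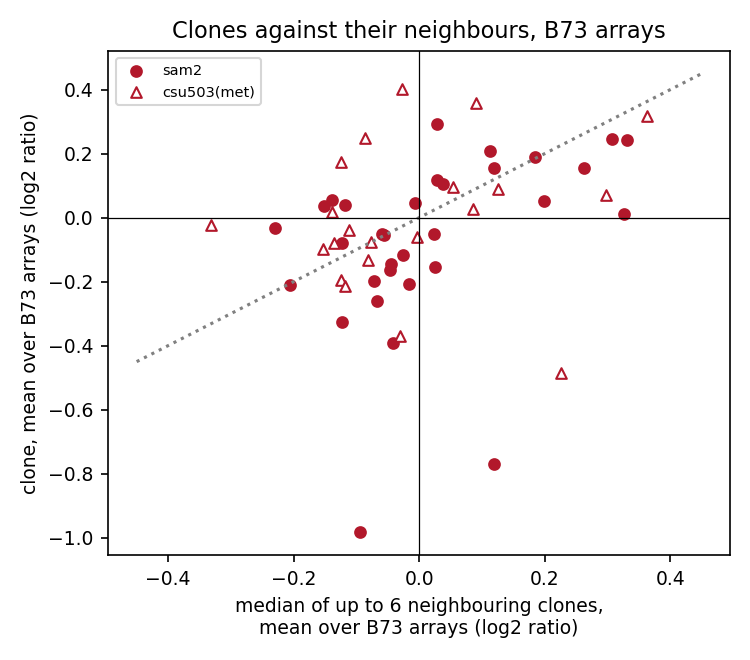
L1 of each of the 53 clones against the median of up to 3 neighbouring clones on each side in row order. The median was taken on each array and averaged over the B73 arrays. Clones 8 and 26 of sam2 and clone 16 of csu503(met) lie far below neighbours at 0.12, -0.09 and 0.23, and csu503(met) clone 10 lies beside neighbours at 0.36.

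Few other genes of the cycle were found on the array by symbol or synonym, and genes that only a description would show were not searched for. The list of methionine and S-adenosylmethionine metabolism matched 6 clones, of which 2 were called for L1, 1 in each direction, against 41.7% of all clones, with a median of 0.06. For L2 0 were called and 2 had an unadjusted limma p under 0.05, against 824 of 5357 clones. The single clone of cgs1, cystathionine gamma-synthase, which commits homoserine to methionine, had L1 at -0.05 and L2 at -0.24, the latter with a limma adjusted p of 0.12, and it was called for d at -0.14 (limma adjusted p 0.0499). The clone of HMT-2, a homocysteine methyltransferase that makes methionine from S-methylmethionine, had L1 at 0.0008 and L2 at -0.03. The 3 clones of cys2 lay at -0.72, 0.12 and 0.25 for L1, the first and last of which were called in opposite directions (limma adjusted p 0.00152 and 0.0114). The remaining clone, of BM1, had L1 at 0.23 (limma adjusted p 0.0631). The sources used here did not describe the products of BM1 and cys2, so the counts over the 6 clones may include genes outside the cycle. PEAMT, a phosphoethanolamine methyltransferase that consumes S-adenosylmethionine, was added after the annotation was seen. Its 5 clones ranged for L1 from -0.69 to 0.32 with 4 called, 2 in each direction, against the same 41.7%, so its clones, like those of sam2, lay on both sides of 0.

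By the root mean square difference of gene means over the 10 arrays, among 69 genes with at least 3 clones, the gene most like sam2 was ss2, also named sus1, a sucrose synthase, at 0.0527. It was followed by sbe1, a starch branching enzyme, at 0.0591 and by csu503(met) at 0.0609, where the median gene was at 0.107. For csu503(met) the nearest were RP-P0, a ribosomal stalk protein, at 0.0359, dps1 at 0.0402 and elfa3, an elongation factor gene, at 0.0558, and sam2 came 7th. All genes share the same arrays and the same hybrid RNA, so the order is a description only.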

How the data were processed

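The deposited data gave 1 log2 ratio per spot on each of 10 cDNA arrays, already centred by the authors, since array medians lay between -0.001 and 0. The log2 scale is that of the design text. Scanner, background correction and normalization were not given in the sources used here. Total RNA of 3 or more extractions was pooled before poly(A) selection, and each channel took 1 microgram, per the labels' protocols. The 16200 spots formed 5400 clones of 3 successive spots, averaged; missing spots stayed missing (0.253% to 2.315% per array), and 3 of 530 member values were missing, all in sam2 clone 32. The median SD of a member's 3 spots was 0.0509.

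Gene names came from the old platform annotation, 811 clones with 1 name and 0 with several, and 208 of 213 names were found in RefSeq's gene table (assembly Zm-B73-REFERENCE-NAM-5.0), which served for naming alone. In limma 3.58.1 (R 4.3.3) 1 mean for each inbred, without a term for the dye, was fitted over all 10 arrays, testing clones with at least 3 values per inbred and 1 per dye orientation (43 were left out). The design text used SAM and an F-test. Gene means entered a second fit of 4763 features. Intervals are 95%. Precision is limited by the number of arrays. The fits were tested on simulated data.

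All members are counted. Array values are printed for the clones with the highest or lowest L1 or L2 of each gene and, for each contrast, up to 3 called clones of largest size. Pathway genes came from a list of symbols, and like genes were the nearest 3. The members and lists were chosen with earlier results of these data known, and the Fieller ratio was added as a description after the values were seen. Alternatives were array turning, spot choice, scaling, quantile normalization, variance, dye term, single orientations, neighbours, replicate block, clone medians and leaving out arrays.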

Additional observations from a re-analysis of the deposited data

Results flagged for a closer look

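On the H99 arrays of sam2 clone 3, array 3 read 0.575 and stood away from the nearest array at 0.278, a gap of 0.755 of the whole range against a Dixon limit of 0.71. This was 1 of 26 groups of member values examined, and chance flags about 1 in 20.

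For the arrays as deposited, the effects under B73 and under H99 differed in the limma contrast a, each on 5 arrays per inbred. For sam2, a was 0.178 in clone 1, 0.281 in clone 8 and 0.353 in clone 26. In csu503(met) it was -0.164 in clone 9, -0.182 in clone 10, 0.139 in clone 11, 0.189 in clone 12 and -0.189 in clone 18. With 1 array left out, the call of csu503(met) clone 9 was lost in 7 of 10 cases and that of clone 11 in 6. Those of csu503(met) clone 12 and sam2 clone 1 were lost in 1 case each, without B73 array 2 and without H99 array 2, and the other calls held in all 10. With the reversed B73 arrays turned, 0 of these 8 calls were kept. Scaling to one spread and the reversed arrays alone each kept 1, each clone's own variance kept 3 and quantile normalization kept 4. A dye term and the forward arrays alone each kept 8, and turning the reversed H99 arrays kept 7.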

How the results depend on the processing

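Over both genes 23 clones were called for L1, 1 was for L2, 17 were for d and 10 were for a. They became 0, 0, 0 and 0 with the reversed arrays of B73, or of both inbreds, turned. With those of H99 turned they were 0 for L2, 9 for d and 15 for a. Over all 5357 clones, calls for L1, L2, d and a were 2235, 66, 1352 and 1089 as deposited. They were 0, 13, 2 and 2 with B73 turned, 0 for each with both turned, and 2215, 41, 666 and 1516 with H99 turned. For the settings below only member counts are given, so they do not show whether the members changed more than the whole array. The middle spot alone gave 0 for L2 and 6 for a. Arrays scaled to one spread gave 12, 2, 11 and 2, and quantile normalization 12 for L1, 4 for L2 and 5 for a. Each clone's own variance, in an ordinary t-test without limma's sharing of variance, gave 0 for L2, 7 for d and 4 for a. The sam2 mean for L1, -0.0713, was then called at a t-test adjusted p of 0.0347. The share of all features called in that setting is not given. Forward arrays alone gave 29 for L1, 3 for L2 and 18 for a, and reversed arrays alone 8 for L1, 7 for d and 2 for a. Leaving out 1 array gave 12 to 25 calls for L1 and 0 to 1 for L2, and it gave 7 to 18 for d and 5 to 14 for a.

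Gene means near 0 changed sign. That of sam2 was 0.00372 for L1 with B73, or both inbreds, turned, 0.00659 for d with B73 turned, -0.00432 for L2 with H99, or both, turned and -0.00402 for a with both turned. That of csu503(met) for L1 was -0.00672 with the middle spot, -0.00374 scaled, -0.000857 with a dye term, -0.0131 on reversed arrays and -0.0327 as the median of the clones, which gave -0.00533 for d. Without 1 array it ran from -0.00414 to 0.01, and L2 of the sam2 mean from -0.00237 to 0.0313. Clones that changed sign were csu503(met) clone 16 for L1 (0.0735, B73 or both turned), sam2 clone 8 for a (-0.00743, B73 turned) and sam2 clone 26 for a (-0.109 with B73 and -0.0662 with both turned). With both turned, d was -0.0327 in sam2 clone 19, -0.013 in csu503(met) clone 10 and -0.0252 in csu503(met) clone 18. With the neighbours' median subtracted, csu503(met) clone 10 had -0.0462 for L1, -0.0148 for d and 0.0314 for a. The cause of these changes was not tested.

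No pairing of the inbreds by array number was seen. After each clone's mean per inbred was subtracted, same-numbered arrays correlated at -0.29 to 0.31 over clones, and 1 of 5 numbers was best matched by itself. These differences sum to 0 within an inbred, which lowers their correlations, so a pairing is not excluded. A replicate block on these numbers gave 7 calls for a and took csu503(met) clone 11 out of the calls at a limma adjusted p of 0.0556. Pools labelled repeatedly limit what the spread can show, and signal over background is unknown.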
